A study of Mus musculus with 24 samples.

Results

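The microglia genes are 9 transcripts commonly used to mark the resident immune cells of the brain: Cx3cr1, C1qa, C1qb, C1qc, Csf1r, P2ry12, Tmem119, Aif1 and Trem2. They were chosen by symbol, and all 9 were found among the 24079 genes of the count table. Tissue was taken from 2 striatal regions, nucleus accumbens (Acb) and dorsal striatum (DS), of wild-type mice and of knockin littermates (rpS6P-/-), in which all the phosphorylation sites of ribosomal protein S6 are replaced by alanine in every cell of the body. From each region, RNA was sequenced from whole cytosolic lysates (total RNA) and from heavy polysomal fractions, which hold mRNAs carrying more than 4 ribosomes. The 2 regions, 2 genotypes and 2 fractions make 8 groups of 3 libraries, 24 in all. Wild-type and knockin mice shared a mixed C57Bl/6, Sv129 and ICR background, both sexes were used, and the labels name no treatment. Their age is not given in the sources used here. Each library pooled tissue from several mice, so the spread between the 3 libraries of a group is a spread between pools. No cells were sorted, and in such bulk RNA fewer microglia and less RNA of a gene per microglial cell cannot be told apart.

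Microglia are long-lived macrophages of the brain that watch over synapses, clear debris and respond to injury. They depend on the receptor Csf1r, which binds the cytokines Csf1 and Il34, and they sense neurons through Cx3cr1, the receptor of the neuronal chemokine Cx3cl1 (fractalkine), and purine nucleotides through P2ry12. C1qa, C1qb and C1qc encode the 3 chains of complement C1q, the recognition molecule of the classical complement pathway, which also tags synapses for removal. Trem2 is a lipid-sensing receptor that signals through the adaptor Tyrobp, Tmem119 is a membrane protein used as a microglial marker, and Aif1 encodes the actin-bundling protein Iba1, the usual antigen for staining microglia.

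C1qa (Entrez 12259, chr4:136895916-136898844), C1qb (12260, chr4:136880126-136886200) and C1qc (12262, chr4:136889801-136892936) are neighbours on chromosome 4, within 18719 bases of each other. The other genes lie apart from them: Cx3cr1 (13051, chr9:120048683-120068296), P2ry12 (70839, chr3:59216271-59262985), Tmem119 (231633, chr5:113793729-113800396), Aif1 (11629, chr17:35170986-35176083), Trem2 (83433, chr17:48346401-48352276) and Csf1r (12978), on a chromosome of its own. Coordinates are those of RefSeq on GRCm38.p6, the assembly of the build mm10 to which the reads were aligned. A pair of neighbouring C1q genes is set beside Aif1, which passed in no comparison of the regions below. For C1qb, C1qc and Aif1, the 250 bases before the start that the RefSeq promoter table uses are shown 5′ to 3′ on the gene's strand. All 3 genes are on the minus strand, and the windows are chr4:136886201-136886450, chr4:136892915-136893164 and chr17:35176053-35176302. The last bases of the C1qc and Aif1 windows lie inside the gene spans given above, which start further upstream than the start used here. Capitals mark GAGGAA, or TTCCTC where it is on the other strand, the core recognised by the myeloid factor that Spi1 encodes.
C1qb: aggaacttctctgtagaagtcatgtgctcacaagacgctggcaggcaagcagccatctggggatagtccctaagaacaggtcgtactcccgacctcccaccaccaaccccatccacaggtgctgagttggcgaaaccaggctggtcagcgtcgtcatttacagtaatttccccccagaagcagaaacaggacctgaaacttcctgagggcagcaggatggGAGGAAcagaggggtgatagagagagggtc
C1qc: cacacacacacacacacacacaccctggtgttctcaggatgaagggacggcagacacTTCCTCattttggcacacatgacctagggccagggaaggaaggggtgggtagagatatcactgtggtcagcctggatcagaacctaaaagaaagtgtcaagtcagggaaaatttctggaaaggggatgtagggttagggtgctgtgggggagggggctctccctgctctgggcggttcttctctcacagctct
Aif1: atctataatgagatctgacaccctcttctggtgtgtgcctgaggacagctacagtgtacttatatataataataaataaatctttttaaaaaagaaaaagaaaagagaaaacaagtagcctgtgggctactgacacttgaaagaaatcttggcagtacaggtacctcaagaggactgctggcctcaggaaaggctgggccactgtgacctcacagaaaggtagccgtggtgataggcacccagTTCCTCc
The match began 30 bases before the start in C1qb, 193 in C1qc and 7 in Aif1, the last inside the span of the gene. RefSeq promoter sequences were searched for 6 of the 9 genes, and 4 of the 6 held a match, the fourth being Trem2. Those of C1qa, Csf1r and Tmem119 were not searched. Cx3cr1 and P2ry12 held none in this window. Of the 32851 promoters of that table, 7639 (23.3%) held a match. A match describes these letters and is no evidence of binding.

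Reads assigned to genes ranged from 9280589 to 20259509 in the 12 total libraries (median 14889586) and from 11109431 to 34703044 in the 12 heavy libraries (median 19862908). Within a group, the correlation of log2 CPM between libraries was 0.933 to 0.982, across genes. Bc1, a short neuronal RNA that is not translated, held 15.2 to 26.1% of reads in total RNA and 0.897 to 3.85% in heavy fractions. The knockin changes codons of Rps6 and leaves its mRNA in place, so read counts could not check the genotype labels: Rps6 stood at 269 to 496 CPM in wild-type libraries and 303 to 448 CPM in rpS6P-/- libraries. All values are CPM, reads of a gene scaled to a common library size, after TMM scaling over the 24 libraries, and log2 fold changes carry their standard error. Counts of 24 to 290 reads per library lay behind Trem2, the lowest of the 9 genes, and its values are the least precise.

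The 9 genes were measured in every library, at single-library values of 1.95 to 72.2 CPM. Divided by transcript length, the C1q chains were the most abundant in all 4 Acb groups. In Acb wild-type lysates C1qa stood at 25.0 ± 0.86 CPM per kilobase (SD, n = 3), C1qb at 24.5 ± 6.36 and C1qc at 17.6 ± 3.49, followed by P2ry12 at 15.4 ± 1.19, Cx3cr1 at 11.4 ± 0.82, Aif1 at 11.2 ± 4.68, Csf1r at 8.98 ± 0.69, Tmem119 at 7.52 ± 2.12 and Trem2 at 6.62 ± 3.72. Of the 8 steps between neighbours in that order, 1 was larger than the summed SDs of the pair. In DS the order differed: Aif1 led in wild-type heavy fractions, at 26.7 ± 6.36 CPM per kilobase, and in rpS6P-/- lysates, at 14.4 ± 5.52. Among the C1q chains, C1qc was the lowest per kilobase in all 24 libraries, with 18.2 to 30.9% of their sum. C1qa was the highest in 15 libraries (29.4 to 48.9% of the sum) and C1qb in the other 9 (27.0 to 44.3%).

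**Figure D1:**
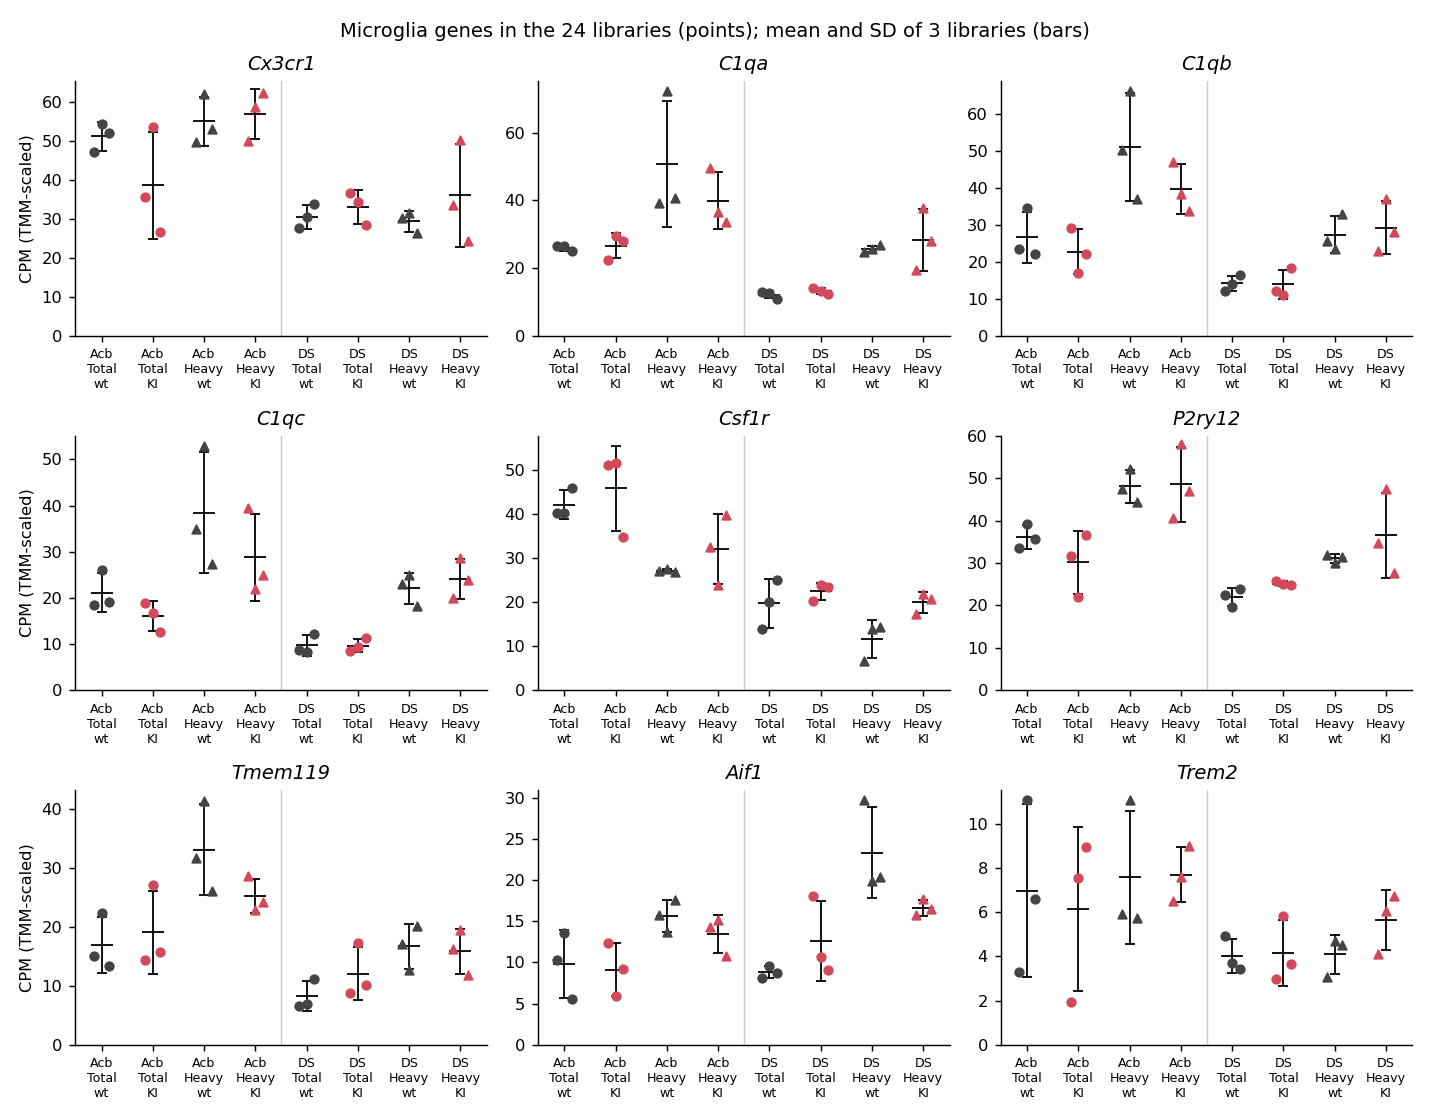
CPM of each of the 9 genes in the 24 libraries, 1 panel per gene and 1 column per group of 3 libraries, on a linear axis. Circles are whole lysates and triangles heavy polysomal fractions, dark for wild-type (wt) and red for rpS6P-/- (KI) mice, and bars are the mean and SD of 3 libraries. The C1q chains stand higher in heavy fractions than in lysates of the same region, Csf1r stands lower, and most genes are lower in the DS columns than in the Acb columns.

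Across the 8 groups, mean levels per gene spanned 1.92-fold for Trem2 and 1.94-fold for Cx3cr1 to 4.18-fold for C1qa. C1qa ran from 12.1 ± 1.06 CPM in DS wild-type lysates to 50.7 ± 18.6 CPM in Acb wild-type heavy fractions (SD, n = 3). The same Acb heavy group was highest for C1qb (51.1 ± 14.5 CPM), C1qc (38.4 ± 13.1 CPM) and Tmem119 (33.1 ± 7.74 CPM). Csf1r had another order, from 11.6 ± 4.26 CPM in DS wild-type heavy fractions to 45.9 ± 9.58 CPM in Acb rpS6P-/- lysates. Aif1 had its highest and its lowest mean in the same region and genotype, 23.4 ± 5.57 CPM in DS wild-type heavy fractions and 8.82 ± 0.72 CPM in DS wild-type lysates. Neighbouring groups in these orders mostly overlapped: of the 7 steps per gene, 0 to 2 separated the libraries of both groups fully.

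The label of the 9 genes was checked against other cell types that such tissue could hold. A list of 20 other homeostatic microglial genes, such as Siglech and Ctss, summed to 216 to 558 CPM per library, and none of the 20 was at 0 in any group. The 8 genes of perivascular macrophages, the closest relatives of microglia in the brain, summed to 2.92 to 9.23 CPM, with up to 3 of them at 0 in a group. The 10 genes of blood leukocytes summed to 0 to 8.71 CPM. The 7 red blood cell genes summed to 0.104 to 6.97 CPM, all of it from Alas2. Their 6 haemoglobin genes were listed at 0 in every library. Whether the counting could measure haemoglobin genes was not tested, so this list does not show how much blood the tissue held. Endothelial genes reached 4.79 to 23.9 CPM over 7 genes. The other lists differed by region: the 5 cortical excitatory neuron genes summed to 63.0 to 205 CPM in Acb and 726 to 1019 CPM in DS, and the 6 choroid plexus genes to 29.1 to 73.6 CPM in Acb and 11 to 20.4 CPM in DS. Astrocyte genes (7) reached 1738 to 3084 CPM in Acb and 1027 to 2117 CPM in DS, oligodendrocyte genes (7) 3120 to 5680 and 2719 to 4942 CPM, and genes of oligodendrocyte precursors (4) 121 to 220 and 80.1 to 185 CPM. The 7 measured genes of medium spiny neurons, the main cells of the striatum, summed to 3073 to 5911 CPM in Acb and 2888 to 6035 CPM in DS.

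**Figure D2:**
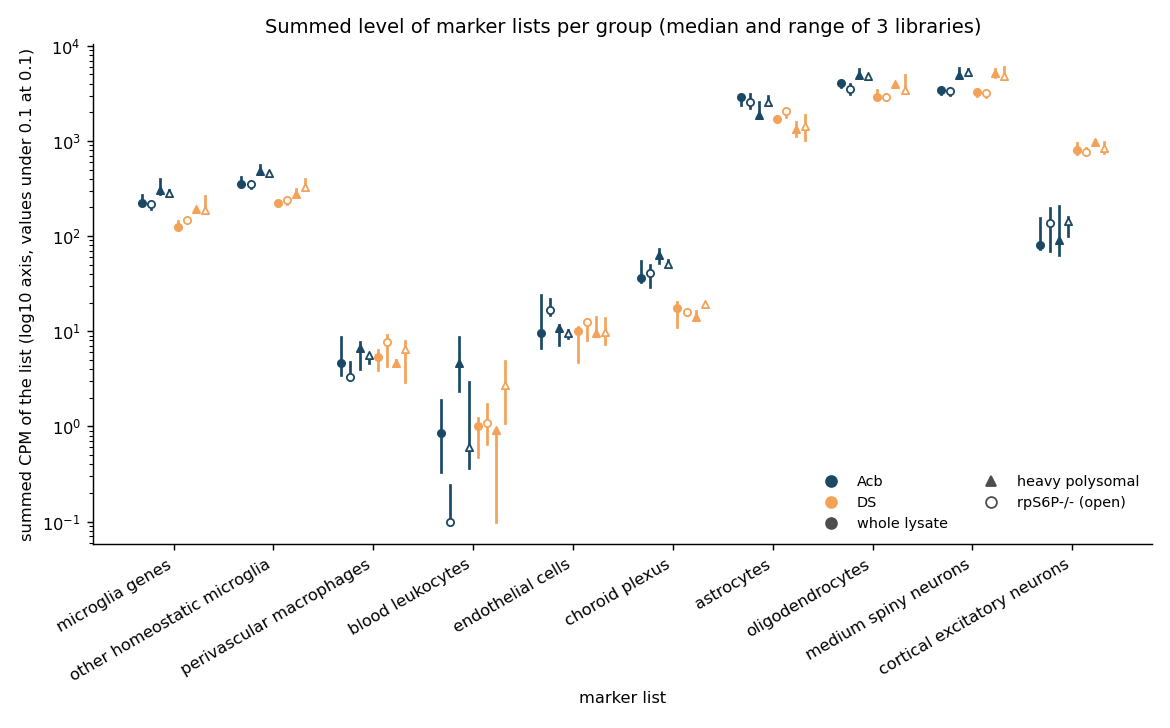
Summed CPM of the genes of each list on a logarithmic axis, as the median (point) and range (line) of the 3 libraries of each group, blue for Acb and orange for DS, circles for lysates and triangles for heavy fractions, open for rpS6P-/- mice, with values under 0.1 CPM drawn at 0.1. The 9 microglia genes and the 20 other homeostatic microglial genes are higher in Acb than in DS, as are choroid plexus genes, while cortical excitatory neuron genes are higher in DS and perivascular macrophage genes stay under 10 CPM.

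The heavy fractions were first compared with the whole lysates, which asks how much of each mRNA sat on many ribosomes relative to all other mRNAs. The C1q chains were higher in heavy fractions, Csf1r was lower in Acb wild-type mice, and Cx3cr1 and Trem2 passed the test in no group. In Acb wild-type lysates, C1qa stood at 26.5, 26.5 and 24.9 CPM, and in the heavy fractions at 39.1, 72.2 and 40.8 CPM. The groups did not overlap, and the difference was 0.96 ± 0.21 on the log2 scale (adjusted p = 0.0011, edgeR's quasi-likelihood test with Benjamini-Hochberg adjustment over all genes). C1qb changed by 0.93 ± 0.21 (adjusted p = 0.00163) and C1qc by 0.86 ± 0.23 (adjusted p = 0.00545). In DS all 3 chains passed in both genotypes. C1qc stood at 8.67, 8.20 and 12.2 CPM in wild-type lysates against 23.1, 24.9 and 18.3 CPM in heavy fractions, and at 8.52, 9.26 and 11.2 CPM against 19.9, 28.6 and 23.8 CPM in rpS6P-/- mice. Every heavy library lay above every lysate library in both genotypes, with differences of 1.16 ± 0.27 (adjusted p = 0.00175) and 1.28 ± 0.25 (adjusted p = 5.66e-05, edgeR). C1qa and C1qb differed there by 1.05 ± 0.25 and 0.93 ± 0.25 in wild-type mice (adjusted p = 0.00169 and 0.00507) and by 1.06 ± 0.24 and 1.04 ± 0.24 in rpS6P-/- mice (adjusted p = 0.000346 and 0.000476). In Acb rpS6P-/- mice C1qb (0.79 ± 0.23, adjusted p = 0.0181) and C1qc (0.82 ± 0.26, adjusted p = 0.0289) passed and C1qa did not (0.57, adjusted p = 0.0737).

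Tmem119 was higher in heavy fractions of wild-type mice. In Acb it stood at 15, 22.3 and 13.3 CPM in lysates and 31.7, 41.4 and 26.1 CPM in heavy fractions (0.96 ± 0.23, adjusted p = 0.00242, edgeR). In DS it stood at 6.58, 6.90 and 11.2 CPM against 17.1, 12.7 and 20.2 CPM (1.0 ± 0.31, adjusted p = 0.0168). The ranges were apart in both regions. In rpS6P-/- mice the differences were 0.39 (adjusted p = 0.332) in Acb and 0.36 (adjusted p = 0.367) in DS, where the ranges overlapped. Among the receptors, Csf1r was lower in Acb wild-type heavy fractions, at 27.2, 27.6 and 26.8 CPM against 40.3, 40.3 and 45.9 CPM in lysates, with no overlap (-0.64 ± 0.18, adjusted p = 0.00882). It did not pass in the other groups, at -0.53 (adjusted p = 0.102) in Acb rpS6P-/-, -0.78 (adjusted p = 0.0534) in DS wild-type and -0.21 (adjusted p = 0.559) in DS rpS6P-/- mice. P2ry12 passed in Acb rpS6P-/- mice (0.67 ± 0.22, adjusted p = 0.033), while its values in the other groups were 0.41 to 0.50 (adjusted p = 0.0566 to 0.116). Cx3cr1 differed by -0.09 to 0.55 and Trem2 by -0.01 to 0.41, none past the threshold.

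Aif1 passed in 1 of the 4 groups. In DS wild-type mice it stood at 8.14, 9.57 and 8.74 CPM in lysates and at 29.8, 19.9 and 20.4 CPM in heavy fractions, the largest difference of any of the 9 genes (1.37 ± 0.27, adjusted p = 0.000292, edgeR). In DS rpS6P-/- mice the lysates were at 18.1, 10.7 and 9.04 CPM and the heavy fractions at 15.7, 17.7 and 16.5 CPM. These overlapped through 1 lysate, and the difference was 0.36 (adjusted p = 0.347). In Acb it was 0.66 (adjusted p = 0.0975) in wild-type and 0.53 (adjusted p = 0.273) in rpS6P-/- mice.

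**Figure D3:**
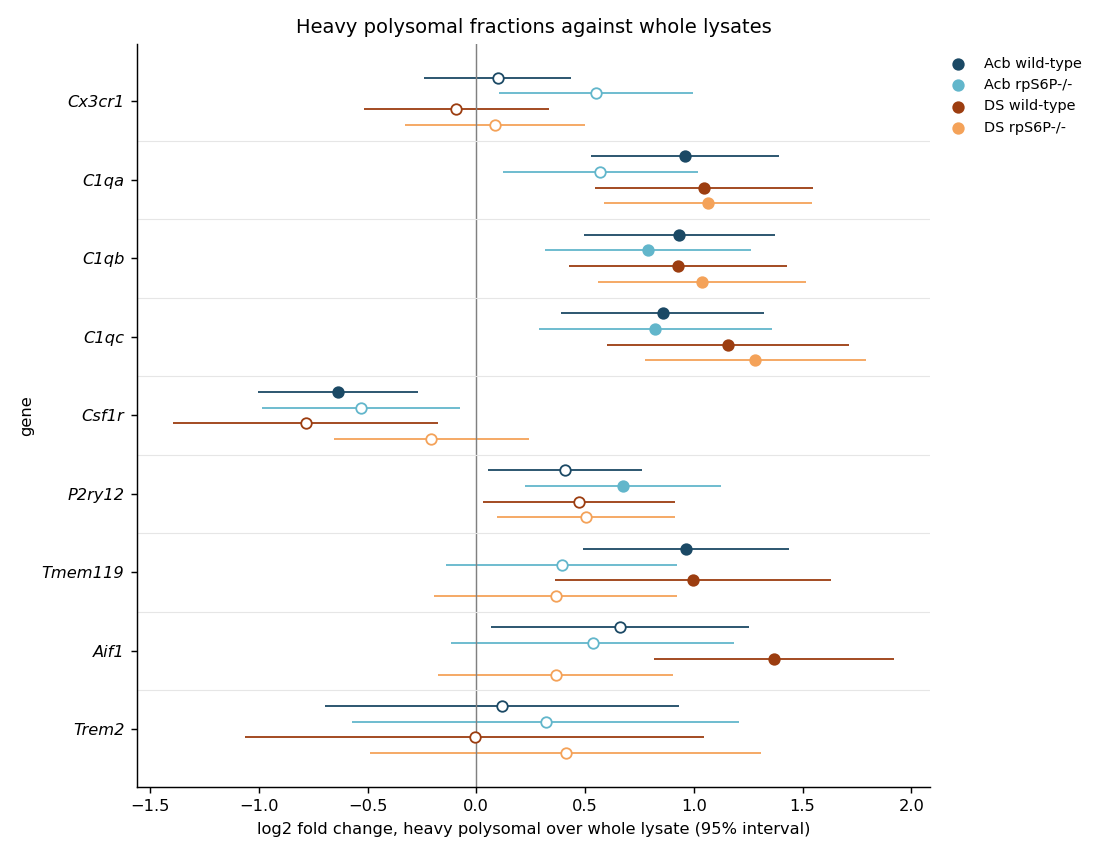
Log2 fold change of heavy polysomal fractions over whole lysates for each gene in each region and genotype, with 95% intervals; filled points passed an adjusted p of 0.05 and open points did not. The C1q chains lie to the right of 0 in every group, Csf1r lies to the left in every group, and Cx3cr1 and Trem2 have open points only.

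In counts, 4 of the 9 genes were higher in heavy fractions of Acb wild-type mice, where 13% of all 16043 genes tested were higher, and 1 was lower, against 12.9% of all genes. In Acb rpS6P-/- mice 3 were higher (background 7.70% of 15721 genes), in DS wild-type mice 5 (12.8% of 15614) and in DS rpS6P-/- mice 3 (13.8% of 15912). The median difference of the 9 genes was 0.66, 0.55, 0.93 and 0.41 in that order, beside 0.03, 0.01, 0.00 and 0.03 over all genes. By the methods, heavy and total RNA came from the same lysates, and ratios within a lysate restate the values above in another form. For C1qa, C1qb, C1qc and P2ry12, every heavy library lay above every lysate library in each group. Their ratios are therefore above 1 however the libraries are paired. How many of all genes separate by fraction in this way was not counted, so these separations, here and above, have no background beside them. C1qa was 1.2 to 2.84 times as high in the heavy fraction (median 1.98), C1qb 1.52 to 3.31 times (1.90) and C1qc 1.30 to 3.09 times (2.07), each above 1 in 12 of 12 lysates. P2ry12 was also above 1 in all 12, but by less (median 1.34). Csf1r was above 1 in 1 of 12 (0.464 to 1.14, median 0.679), Cx3cr1 in 9 of 12 (median 1.08) and Trem2 in 9 of 12 (median 1.15). Other cell types moved with the fraction too: 4, 4, 4 and 5 of the 7 medium spiny neuron genes were higher in heavy fractions in the same order of groups and 0 were lower, while of the 7 astrocyte genes 0, 2, 1 and 1 were higher and 3, 2, 3 and 3 lower. Of the 8 perivascular macrophage genes, 7, 5, 6 and 8 were tested in that order of groups, and 1 passed, Cbr2 in Acb wild-type mice. They summed to only 2.92 to 9.23 CPM per library, so differences of theirs could have been missed. The part of these cell types in the values of the microglia genes was not tested. With the lysate as a replicate block, 3 further genes passed: Aif1 in Acb wild-type mice (0.73, adjusted p = 0.0338), Cx3cr1 in Acb rpS6P-/- mice (0.59, adjusted p = 0.0327) and, in the lower direction, Csf1r in DS wild-type mice (-0.83, adjusted p = 0.016).

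Transcript length moved with this comparison. Over all genes, shorter transcripts were higher in the heavy libraries (Spearman's rho of the log2 fold change with length -0.33 and -0.20 in Acb wild-type and rpS6P-/- mice and -0.40 and -0.47 in DS, across 14832 to 15222 genes). The C1q transcripts are short, at 1040, 1088 and 1203 bases for C1qa, C1qb and C1qc, and that of Aif1 is 875 bases, while Csf1r (4701 bases) and Cx3cr1 (4493 bases) are the longest of the 9. Trem2, with 1056 bases, was within the range of the C1q chains and did not pass, but its values were the least precise. Its differences were 0.12 ± 0.40 and 0.32 ± 0.43 in Acb wild-type and rpS6P-/- mice. In DS they were -0.01 ± 0.52 and 0.41 ± 0.45. Whether transcript length caused the differences of the 9 genes was not tested. With the trend on length removed from each library, the C1q differences fell to 0.47 to 0.56 in Acb wild-type mice (adjusted p = 0.0601 to 0.134) and 0.38 to 0.66 in DS wild-type mice (adjusted p = 0.087 to 0.297), all short of the threshold in that fit. C1qb in Acb rpS6P-/- mice (0.69, adjusted p = 0.0302) and C1qc in DS rpS6P-/- mice (0.76, adjusted p = 0.0197) still passed, as did Tmem119 (0.81, adjusted p = 0.00917) and Csf1r (-0.48, adjusted p = 0.0488) in Acb wild-type and Aif1 (0.76, adjusted p = 0.0378) in DS wild-type mice. C1qa and C1qb in DS rpS6P-/- mice (both 0.47, adjusted p = 0.153, edgeR) no longer passed. Nor did C1qc (adjusted p = 0.0731) and P2ry12 (0.0939) in Acb rpS6P-/- mice or Tmem119 (0.0552) in DS wild-type mice. Cx3cr1 in Acb rpS6P-/- mice, short of the threshold in the plain comparison, passed with the trend removed (0.61, adjusted p = 0.0477). With the lysate block and the trend removed together, C1qa (0.49, adjusted p = 0.0388) and C1qb (0.53, adjusted p = 0.0152) passed in Acb wild-type mice, C1qc (0.66, adjusted p = 0.0427) in Acb rpS6P-/- mice and Tmem119 (0.82, adjusted p = 0.0382) in DS wild-type mice, by edgeR. Short of the threshold in that fit were C1qc in Acb wild-type mice (adjusted p = 0.0729) and C1qa in Acb rpS6P-/- mice (0.0991). So were the C1q chains in DS wild-type mice (adjusted p = 0.0723 to 0.305) and C1qa (0.194) and C1qb (0.1325) in DS rpS6P-/- mice. Leaving out single libraries changed the counts most in Acb rpS6P-/- mice, where 1 gene passed without lysate 1, without lysate 2 or without heavy library 1, and in DS wild-type mice, where 3 passed without heavy library 3.

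The test was also read for other genes of microglia. Of the 20 other homeostatic genes, 6, 2, 2 and 5 were higher in heavy fractions of Acb wild-type, Acb rpS6P-/-, DS wild-type and DS rpS6P-/- mice, and 0 were lower. Over all genes the shares higher were those given above, 13%, 7.70%, 12.8% and 13.8%. The 2 of 20 in DS wild-type mice were below that share, and the 2 of 20 in Acb rpS6P-/- mice close to it. In Acb wild-type mice they were led by Siglech, a sialic acid-binding receptor (0.80), the lysosomal protease Ctss (0.74) and Selplg, the P-selectin ligand (0.74), and in DS rpS6P-/- mice by Siglech (1.32), Olfml3 (0.91) and Ctss (0.91). Ctss (0.96) and the receptor Tgfbr1 (0.80) passed in Acb rpS6P-/- mice, and Rgs10 (0.91), a regulator of G-protein signalling, and Ctss (0.72) in DS wild-type mice. Among 8 myeloid transcription factors, Mef2c, which neurons also express, was lower in 3 of the 4 groups (-0.58 in Acb wild-type, -0.57 in DS wild-type, -0.86 in DS rpS6P-/- mice), and 2 of the 8 were higher in Acb rpS6P-/- mice, Mef2a (0.52) among them. Spi1 was low, at group means of 1.46 to 5.99 CPM, as was Irf8 (3.72 to 7.29 CPM), while Sall1, which maintains microglial identity, stood at 20.8 to 26.6 CPM. None of these 3 passed.

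Among the ligands and partners of the receptors, directions were mixed. Tyrobp, the signalling adaptor of Trem2, was lower in Acb heavy fractions: group means fell from 21.1 ± 6.48 CPM in wild-type lysates to 8.18 ± 2.51 CPM (-1.37 ± 0.28, adjusted p = 0.000595, edgeR) and from 16.3 ± 3.10 to 4.75 ± 3.13 CPM in rpS6P-/- mice (-1.80 ± 0.39, adjusted p = 0.00171). In DS its differences were -0.88 (adjusted p = 0.12) and -0.18 (adjusted p = 0.735). Others of the 6 genes of the Trem2 list passed once each: Apoe, a lipid carrier and Trem2 ligand made mostly by astrocytes, higher in Acb rpS6P-/- mice (0.68), the phosphatase gene Inpp5d lower in DS wild-type mice (-1.18) and the kinase gene Syk lower in DS rpS6P-/- mice (-1.46). Cx3cl1, at 340 to 583 CPM, was lower in heavy fractions of DS (-0.50 in wild-type and -0.37 in rpS6P-/- mice). The Csf1r ligands Il34 (42.0 to 67.6 CPM) and Csf1 (6.49 to 10.7 CPM) did not pass. The partners of C1q in complement were near the limit of detection: C1ra and C1s1, the proteases of the C1 complex, had group means of at most 0.591 and 0.278 CPM and C3 at most 0.721 CPM. Of the chains of the receptor for cleaved C3, Itgam stood at 1.21 to 12.6 CPM and Itgb2 at 0.539 to 2.05 CPM, and Itgam was lower in heavy fractions of Acb rpS6P-/- mice (-1.62).

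The regions were compared next, within each genotype and fraction. In wild-type mice 7 of the 9 genes were higher in Acb than in DS, in lysates as in heavy fractions, and Aif1 and Trem2 were not. In the lysates, Csf1r stood at 40.3, 40.3 and 45.9 CPM in Acb and 14, 20.1 and 25.1 CPM in DS (1.09 ± 0.21, adjusted p = 0.00021, edgeR). C1qa stood at 26.5, 26.5 and 24.9 CPM against 12.8, 12.7 and 10.9 CPM (1.09 ± 0.24, adjusted p = 0.00104). Cx3cr1 stood at 47.2, 54.4 and 52.1 CPM against 27.6, 30.4 and 33.7 CPM (0.74 ± 0.18, adjusted p = 0.00306). No Acb library overlapped a DS library for these 3 genes. C1qb (0.91 ± 0.24), C1qc (1.12 ± 0.27), P2ry12 (0.71 ± 0.20) and Tmem119 (1.04 ± 0.31) passed as well, with adjusted p-values of 0.00298 to 0.0167. Aif1 was at 10.3, 13.6 and 5.50 CPM in Acb and 8.14, 9.57 and 8.74 CPM in DS, which overlap (0.16, adjusted p = 0.865), and Trem2 differed by 0.78 (adjusted p = 0.345).

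The wild-type heavy fractions, separate libraries from the same lysates, again had 7 genes higher in Acb. Cx3cr1 stood at 49.8, 62.1 and 53.1 CPM in Acb and 30.3, 31.4 and 26.3 CPM in DS (0.96 ± 0.18, adjusted p = 0.00248, edgeR). Csf1r stood at 27.2, 27.6 and 26.8 CPM against 6.68, 13.8 and 14.3 CPM (1.27 ± 0.26, adjusted p = 0.00573). The C1q chains differed by 1.03 ± 0.23 (C1qa), 0.95 ± 0.22 (C1qb) and 0.85 ± 0.24 (C1qc), Tmem119 by 1.04 ± 0.24 and P2ry12 by 0.68 ± 0.18, with adjusted p-values of 0.00796 to 0.0323. Aif1 was the exception in direction: its 3 Acb libraries, at 15.8, 13.7 and 17.6 CPM, all lay below its 3 DS libraries, at 29.8, 19.9 and 20.4 CPM, without passing the test (-0.51, adjusted p = 0.214). One library weighed on this comparison. Heavy library 2 of wild-type Acb held the highest value of its group for C1qa, C1qb, C1qc, Tmem119, Cx3cr1 and P2ry12, and without it 2 genes passed, Cx3cr1 and Csf1r. In the wild-type lysates 4 genes passed without Acb library 2, and Cx3cr1, C1qa, C1qc and Csf1r passed whichever library was left out.

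In rpS6P-/- mice fewer genes passed. In lysates C1qa stood at 22.4, 29.4 and 28.1 CPM in Acb and 14.1, 13.3 and 12.5 CPM in DS (0.99 ± 0.25, adjusted p = 0.00576, edgeR), and Csf1r at 51.2, 51.6 and 34.8 CPM against 20.2, 23.9 and 23.3 CPM (1.02 ± 0.20, adjusted p = 0.000399). Both were fully separated by region, and both passed whichever library was left out. Cx3cr1 was at 35.6, 53.6 and 26.7 CPM against 36.6, 34.4 and 28.3 CPM, with overlap (0.21, adjusted p = 0.66). C1qb (0.70, adjusted p = 0.109), C1qc (0.72, adjusted p = 0.149) and the other 4 genes did not pass. In heavy fractions Csf1r (0.67 ± 0.22, adjusted p = 0.0348), Cx3cr1 (0.65 ± 0.22, adjusted p = 0.0467) and Tmem119 (0.66 ± 0.23, adjusted p = 0.0475) passed by a small margin. That count of 3 fell to 1 without Acb heavy library 1 or 2 and to 0 without Acb library 3, DS library 1 or DS library 3.

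**Figure D4:**
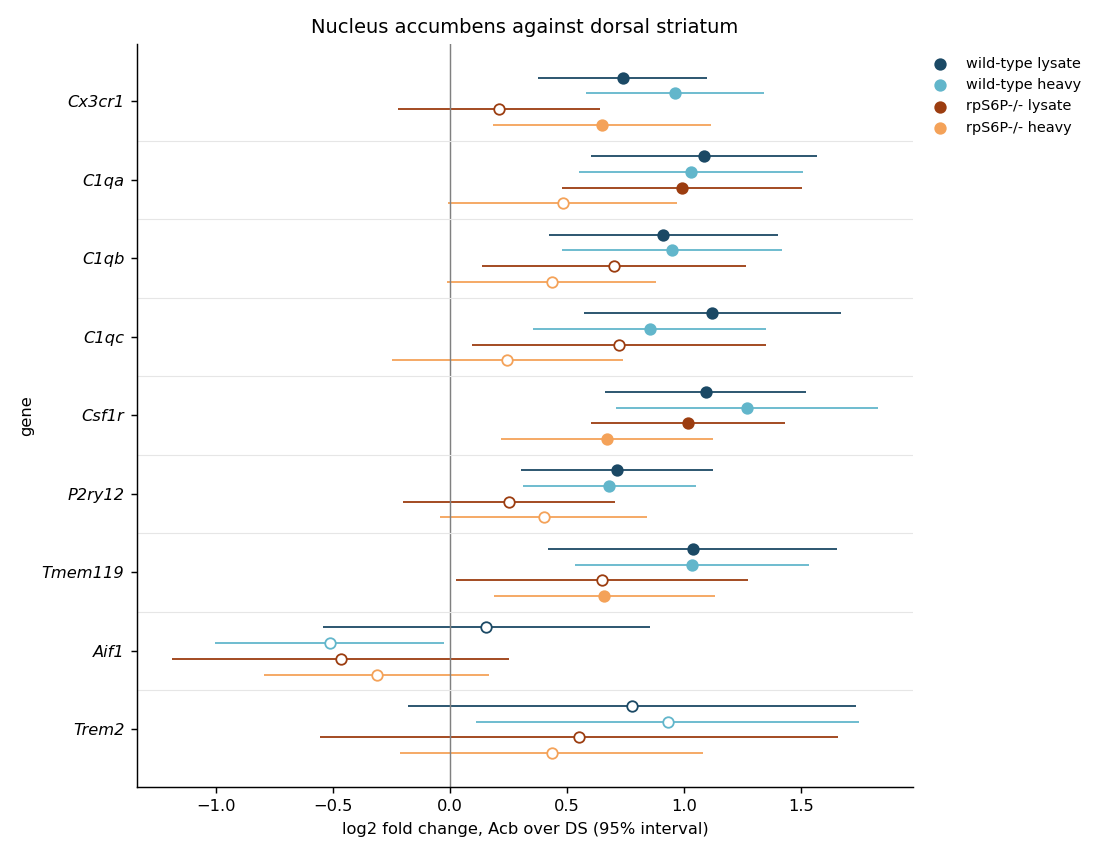
Log2 fold change of Acb over DS for each gene in each genotype and fraction, with 95% intervals; filled points passed an adjusted p of 0.05 and open points did not. In wild-type mice 7 of the 9 genes have filled points right of 0 in both fractions, Trem2 has open points, and the points of Aif1 are open on both sides of 0.

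Against the background, 7 genes were higher in Acb in wild-type lysates, where 6.54% of all 15557 genes were, and 7 in wild-type heavy fractions, where 4.72% of 16143 genes were. In rpS6P-/- mice the counts were 2 in lysates (background 4.84% of 15575 genes) and 3 in heavy fractions (7.89% of 16108). Every Acb library lay above every DS library for 7, 8, 3 and 2 of the 9 genes in the same order of comparisons, beside 14.1%, 13.9%, 12.2% and 18.6% of all genes. The medians of the 9 differences were 0.91, 0.95, 0.65 and 0.44, and those of all genes 0.01, 0.03, 0.00 and 0.01. Other lists moved with the regions too. Of the 7 astrocyte genes, 5 and 4 were higher in Acb in wild-type lysates and heavy fractions and 3 and 5 in those of rpS6P-/- mice, and of the 7 oligodendrocyte genes 4, 1, 4 and 3 were higher, with 1 lower in rpS6P-/- heavy fractions. All 5 cortical excitatory neuron genes were lower in Acb in each comparison (medians -3.66, -3.62, -3.10 and -3.01). Of the 8 perivascular macrophage genes, 6, 7, 6 and 8 were tested in the same order, and 0 passed. They summed to only 2.92 to 9.23 CPM per library, so a regional difference of theirs could have been missed. The part of these cell types in the regional differences of the microglia genes was not tested.

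Of the 20 other homeostatic microglial genes, 7 were higher in Acb in wild-type lysates, 10 in wild-type heavy fractions, 3 in rpS6P-/- lysates and 5 in rpS6P-/- heavy fractions, and 0 were lower. In wild-type lysates the leading genes were Ctss (1.41), Selplg (1.17) and the integrin Itgb5 (1.04), and in wild-type heavy fractions Ctss (1.46), Olfml3 (1.35) and Itgb5 (1.30). In rpS6P-/- lysates Ctss (0.79) and Rgs10 (0.68) were among those that passed. In rpS6P-/- heavy fractions Fcrls, an Fc receptor-like protein, led (1.01), ahead of Itgb5 (0.94). Apoe was higher in Acb in all 4 comparisons, by 1.26 and 1.43 in wild-type and 1.28 and 1.66 in rpS6P-/- lysates and heavy fractions, its group means being 918 to 1480 CPM in Acb and 375 to 467 CPM in DS. Tyrobp was higher in Acb in wild-type lysates (1.03 ± 0.28, adjusted p = 0.00789) and lower in rpS6P-/- heavy fractions (-1.31 ± 0.41, adjusted p = 0.0275). Mef2c was lower in Acb in 3 comparisons (-1.28 in wild-type lysates, -1.26 in wild-type heavy fractions, -1.42 in rpS6P-/- lysates), and Mef2a in the lysates of both genotypes (-0.37 and -0.34). No other of the 8 myeloid factors passed. Of the 8, 5 and 8 had differences below 0 in wild-type lysates and heavy fractions, and 6 and 4 in those of rpS6P-/- mice. Wild-type heavy fractions of Acb and DS averaged 4.87 and 5.99 CPM for Spi1, 5.46 and 6.87 for Irf8 and 25.1 and 21.3 for Sall1. Wild-type lysates averaged 1.46 and 2.83, 5.27 and 3.72, and 26.6 and 23.7 CPM. Of the ligands, Il34 was lower in Acb in rpS6P-/- heavy fractions (-0.69, adjusted p = 0.024), and Csf1 and Cx3cl1 passed in no region comparison.

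The comparison of rpS6P-/- with wild-type mice, the question of the study, found no difference past the threshold in any of the 9 genes. In Acb heavy fractions 0 of 9 passed, beside 0% of 16227 genes tested, in Acb lysates 0 of 9 (background 0.00650% of 15393 genes), in DS heavy fractions 0 of 9 (0.0440% of 15896) and in DS lysates 0 of 9 (0.122% of 15601), by edgeR. DESeq2 passed 0 of the 9 genes in each as well, although in Acb heavy fractions it passed 1090 genes in all, where edgeR passed 0. At an unadjusted p under 0.05, 0, 0, 1 and 0 of the 9 were found in the same order, beside 21.7%, 2.96%, 6.42% and 9.07% of all genes. The gene found was Csf1r in DS heavy fractions, at 17.4, 21.9 and 20.6 CPM in rpS6P-/- mice and 6.68, 13.8 and 14.3 CPM in wild-type mice. The difference of Csf1r was 0.82 ± 0.29, with a 95% interval of 0.25 to 1.4 (adjusted p = 0.587, edgeR). Every rpS6P-/- library lay above every wild-type library for it, as for P2ry12 in DS lysates. For Aif1 in DS heavy fractions every rpS6P-/- library lay below. How many of all genes separate by genotype in this way was not counted, so these separations have no background beside them.

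The intervals show how much could have been missed. For the C1q chains in Acb heavy fractions the differences were -0.34 (C1qa), -0.36 (C1qb) and -0.41 (C1qc), with 95% intervals of -0.83 to 0.15, -0.80 to 0.09 and -0.95 to 0.12. In DS heavy fractions they were 0.20, 0.14 and 0.18, with intervals reaching from -0.32 to 0.67 over the 3 genes. Cx3cr1 had the narrowest interval in Acb heavy fractions (0.05, -0.30 to 0.40) and one that just reached 0 in Acb lysates (-0.41, -0.82 to 0.00). Trem2, the lowest gene, had intervals as wide as -1.22 to 0.84 in Acb lysates, so a 2-fold decrease there could not be told from none. The medians over the 9 genes were -0.22 and -0.19 in Acb heavy fractions and lysates and 0.20 and 0.11 in those of DS, and those of all genes -0.01, 0.00, 0.03 and 0.00. None of the 20 other homeostatic genes, the myeloid factors, or the genes of the signalling, complement and activated microglia lists passed for genotype.

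**Figure D5:**
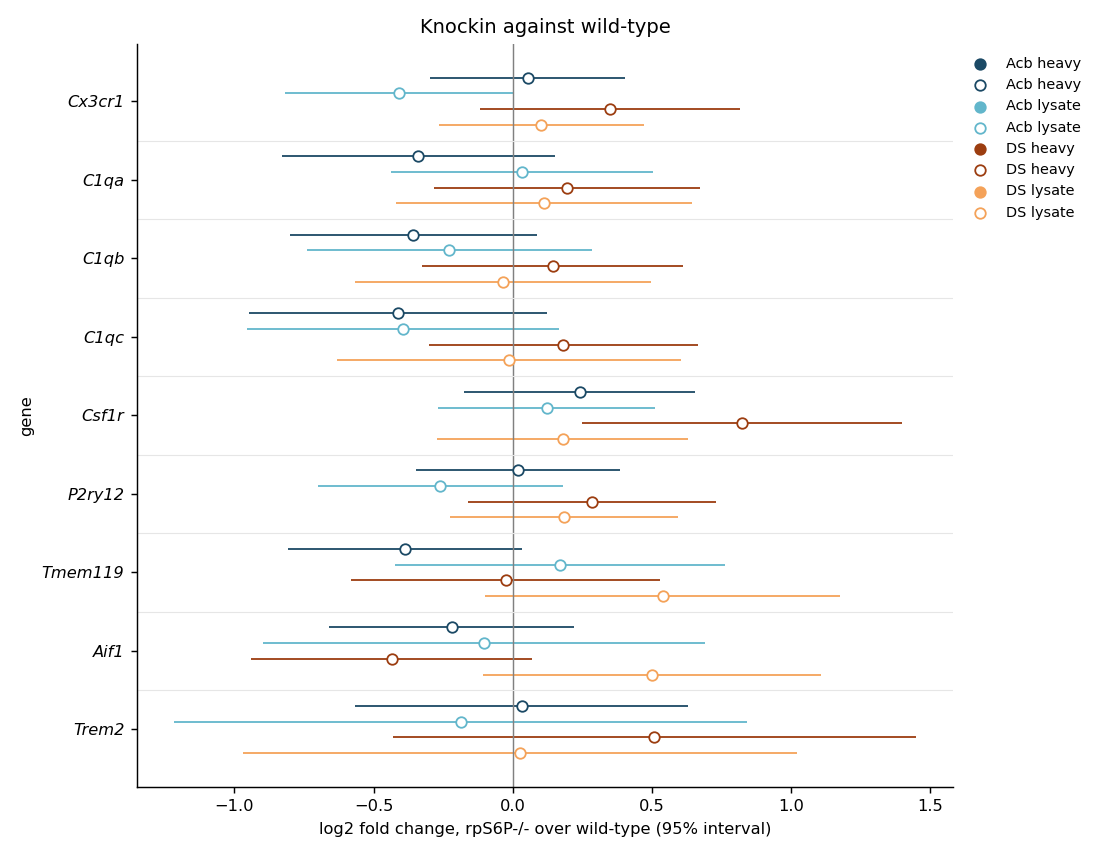
Log2 fold change of rpS6P-/- over wild-type mice for each gene in each region and fraction, with 95% intervals; filled points would mark an adjusted p under 0.05. All points are open, and all intervals reach 0 or cross it but that of Csf1r in DS heavy fractions, which runs from 0.25 to 1.4.

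Whether genotype changed the heavy-to-total difference or the difference between regions was tested directly by interaction terms over 12 libraries. For genotype by fraction, 0 of 9 genes passed in Acb and 0 of 9 in DS, beside 0% of 16687 and 0% of 16544 genes (edgeR). At an unadjusted p under 0.05 there were 0 and 1 of the 9, beside 11.9% and 4.90% of all genes, and DESeq2 passed 0 in each. The 1 gene was Aif1 in DS, whose heavy-to-total difference, given above as 1.37 in wild-type and 0.36 in rpS6P-/- mice, was lower in the latter by -0.97 ± 0.39 (95% interval -1.75 to -0.19, adjusted p = 1, edgeR). For Tmem119, past the threshold in wild-type mice only, the interaction was -0.56 ± 0.35 in Acb (adjusted p = 0.536, edgeR) and -0.59 ± 0.43 in DS (adjusted p = 1). So the loss of its call in rpS6P-/- mice was not itself a difference past the threshold.

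For genotype by region, 0 of 9 passed in heavy fractions and 0 of 9 in lysates, beside 0.00592% of 16880 and 0.00611% of 16364 genes, with 0 of the 9 at an unadjusted p under 0.05 in either (13.8% and 5.11% of all genes) and 0 by DESeq2. The interaction was below 0 in 8 of 9 genes in heavy fractions (median -0.46, lowest adjusted p = 0.475 for C1qc, edgeR). In lysates it was below 0 in 9 of 9 (median -0.37, lowest adjusted p = 0.964 for Cx3cr1). Over all genes, 48.1% and 49.7% were above 0. Below 0 means a lower Acb-over-DS value in rpS6P-/- mice, not always a smaller difference. That of Aif1 went from 0.16 to -0.47 in lysates and from -0.51 to -0.31 in heavy fractions. The medians over all genes were -0.03 and 0.00. The 7 calls in wild-type mice and the 2 or 3 in rpS6P-/- mice are therefore not shown to differ. For fraction by region in wild-type mice 0 of 9 passed (0% of 16684 genes), with 0 of the 9 at an unadjusted p under 0.05, beside 4.60% of all genes, and 0 by DESeq2. The interaction farthest from 0 was that of Aif1 (-0.74, adjusted p = 1, edgeR). All these comparisons reuse the same 24 libraries, and their results are not independent of each other.

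The 9 genes varied together in part. Over the 24 libraries the 36 pairs had a median Pearson's r of log2 CPM of 0.53, from -0.63 between Aif1 and Csf1r to 0.94, and the C1q pairs stood at 0.90 to 0.94. These values hold the differences between regions and fractions. With the mean of each group subtracted, the median was 0.17, from -0.39 for the same pair to 0.66, and the C1q pairs stood at 0.39 to 0.66. Of the 11970 other genes with at least 50 reads on average, those most like the mean of the 9 within groups were Degs1 (r = 0.84), Ctsd (0.83), Cldn11 (0.80), Clptm1 (0.78), Npr3 (0.77), Coq6 (0.76), Grm4 (0.76), Htra1 (0.75), Dnajc3 (0.74) and Slc27a1 (0.74). Ctsd encodes cathepsin D, a lysosomal protease, and Cldn11 a claudin of myelin. Without subtracting group means the list was another, led by Tmbim6 (0.94), Sdf2 (0.94) and Mageh1 (0.94), then Ctso, Itm2c, S1pr1, Penk, Gpr37l1, Tmem47 and Rcn2 (0.94 to 0.92). All points share their libraries and their depth, and these correlations are descriptions.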

How the data were processed

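Libraries were made from poly-A RNA with a stranded kit. The authors aligned reads to mm10 with TopHat2 2.0.13 and Bowtie2 2.2.3, and counted them per gene, by strand, with HTSeq 0.6.1p1 in its union mode. The deposited values are raw counts, not normalized, for 24 libraries. Genes with under 15 reads summed over a fit were left out, as in the study. Libraries were scaled by TMM and tested with edgeR 4.0.16 (glmQLFit, legacy method, and glmQLFTest) in R 4.3.3, over the 6 libraries of each comparison, or 12 for interactions, with Benjamini-Hochberg adjustment over all genes and a threshold of 0.05. The p-values measure the spread between pools. All 9 microglia genes are named. Listed genes are named if past the threshold, up to 3 in each direction (some are not reported here), partners always, and the 10 genes most like the mean of the 9 (log2 CPM, prior count 2). The microglia genes and lists were chosen with earlier results of these data known. Intervals are 95% intervals of the fit. Scripts were tested on simulated data. The methods say that a lysate gave both its heavy and its total RNA, and numbers were taken to mark lysates: deviations from group means correlated at -0.038 to 0.074 over 12 lysates. Alternatives were DESeq2 1.42.0, its size factors, no filter, the newer quasi-likelihood method, all libraries in one fit, a replicate block, removal of a loess trend (span 0.5) on transcript length (the GENCODE transcript with the longest coding sequence, found for 21208 genes), both together, and leaving out each library.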

Additional observations from a re-analysis of the deposited data

How the results depend on the processing

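Of 2393 values of the microglia genes under the alternatives, 2156 kept their direction and their side of the threshold, 74 lost a call, 26 gained one, 137 changed sign without being past the threshold either way, and 0 changed sign with a call. Removing the trend on transcript length left 2 genes past the threshold for heavy against total RNA in Acb wild-type mice (5 before), 1 in DS wild-type mice (5 before) and 1 in DS rpS6P-/- mice (3 before). With the replicate block added to it, these were 4, 2 and 1. The replicate block alone gave 6, 4, 6 and 3 genes for heavy against total RNA, and 1 in place of 3 for Acb against DS in rpS6P-/- heavy fractions. It left the other counts as they were. Between regions and between genotypes, libraries share only a number: deviations correlated at -0.256 to 0.217 (1 of 12 above 0.1) and -0.295 to 0.320 (2 of 12 above 0.1). Leaving out single libraries gave 4 to 6, 1 to 4, 3 to 6 and 3 to 4 genes for heavy against total RNA in Acb wild-type, Acb rpS6P-/-, DS wild-type and DS rpS6P-/- mice. For Acb against DS it gave 4 to 7 and 2 to 7 in wild-type lysates and heavy fractions and 2 to 3 and 0 to 2 in those of rpS6P-/- mice, and 0 to 0 for genotype and every interaction. DESeq2 size factors and DESeq2 itself moved no count by more than 1 gene. Over all genes, the count for Acb against DS in wild-type heavy fractions was 1316, and 2331 with block and length trend removed. For genotype it was 0 in Acb heavy fractions (1090 by DESeq2), 1 in Acb lysates (0 to 5), 7 in DS heavy fractions (0 to 37) and 19 in DS lysates (0 to 95). For interactions it was 0 for genotype by fraction in Acb (up to 116 with block and length) and DS (up to 6), 1 for genotype by region in heavy fractions (up to 433 with all libraries in one fit) and lysates (0 to 6), and 0 for fraction by region (up to 7). The cause was not tested. Depth limited Trem2, at 24 to 290 reads a library, and the complement proteases, at 0 to 23 reads.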

Other observations

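Genes of activated microglia, a list of 18, were read in the same comparisons. In wild-type lysates 4 of the 12 tested were higher in Acb: Cd68, a lysosomal membrane protein (1.17), Axl, a receptor for dying cells (1.06), the tetraspanin Cd9 (0.89) and Ctsd (0.56). In wild-type heavy fractions 3 of 14 were higher, Axl (1.11), Cd9 (0.94) and Ctsd (0.60), and in rpS6P-/- heavy fractions the same 3 of 12 (0.84, 0.65 and 0.59), while in rpS6P-/- lysates it was Ctsd alone (0.44). Mean Cd9 ran from 27.2 CPM in DS wild-type lysates to 85.2 CPM in Acb rpS6P-/- heavy fractions, and it was higher in heavy fractions than in lysates in 3 of 4 groups (0.61 in Acb wild-type, 1.11 in Acb rpS6P-/- and 0.87 in DS rpS6P-/- mice). Axl (0.77) and Ctsb (0.57) were higher in heavy fractions of Acb rpS6P-/- mice. Several of these genes are also expressed by astrocytes or oligodendrocytes.

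Of 18 genes of complement and its receptors, 11 to 14 were tested in a comparison of 6 libraries. C1ql3, a C1q-like secreted protein of neurons and no chain of C1q, was lower in Acb in all 4 comparisons (-2.31 and -1.76 in wild-type, -2.41 and -1.65 in rpS6P-/- lysates and heavy fractions), the direction opposite to C1qa. Itgam was higher in Acb in rpS6P-/- lysates (1.67), and C4b was lower in heavy fractions of Acb rpS6P-/- mice (-1.71) and higher in Acb in wild-type lysates (2.37). C2 and C1ql2 were listed at 0 in DS wild-type lysates and averaged 2.51 and 2.15 CPM in those of Acb. They passed there, but only their Acb reads brought them past the read filter. Their calls are therefore no test of the regions.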
